A study of Mus musculus with 16 samples.

Results

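The high-fat-only m6A peaks are stretches of RNA that were called as methylated in both liver libraries of mice on a high-fat diet and in neither library of mice whose high-fat diet was supplemented with betaine. A member is a peak of high-fat (HF) replicate 1 that overlaps by at least 1 base a peak of HF replicate 2 and overlaps no peak of either library of the high-fat plus betaine group (HB). The members were thus selected on the peak calls themselves, so their presence in HF and absence in HB describes the rule and is not tested. There were 1715 members among the 22060 peaks of HF replicate 1, and 94005 peaks in the 4 lists together. All mice were male C57BL/6, began their diet as adults, stayed on it for 8 weeks and were 16 weeks old at sampling. HF mice ate the high-fat diet alone, and HB mice ate the same kind of diet with betaine, so that every mouse was on a high-fat diet and no group on a normal diet enters any comparison. Per the labels, material of 2 independent experiments was pooled for the mRNA and ribosome-bound libraries, and p-values measure only the spread between such pools.

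m6A is methylation of adenosine at its N6 position, the most common internal mark of messenger RNA. A writer complex places it, with Mettl3 as the catalytic subunit, Mettl14 as its partner and Wtap, Rbm15 and Zc3h13 as adaptors. Fto and Alkbh5 remove it, and YTH-domain proteins read it and alter the stability or translation of the transcript. The mark is known for lying near stop codons and in long internal exons, in a short sequence context centred on GGAC. Betaine donates a methyl group that turns homocysteine into methionine, the precursor of S-adenosylmethionine, which is the methyl donor for m6A.

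RefSeq sequence (GRCm38.p6, the mm10 build of the files) was at hand for windows from 250 bases before to 50 bases after gene starts, and the summits of 10 members fell into such a window. The 30 bases nearest the summit are shown for 6 of these, on the strand of the gene, because the bases under a summit were at hand for these 10 members alone. Capitals mark a match to 1 of 6 versions of the m6A context on the strand of the gene, namely the core context GGACT, its variants with another last base (GGACA or GGACC), its variants with another first base (AGACT or TGACT) and the variant GAACT. A stretch was counted once however many motifs it held or overlapped in it. The first sequence lies at chr16:32431250-32431279, the second at chr12:110447409-110447438, the third at chr7:25680912-25680941, the fourth at chr2:11705469-11705498, the fifth at chr3:95217950-95217979 and the last at chr7:100469515-100469544.
Pcyt1a: acctcggagagcacgaggcagaggctgcga
Ppp2r5c: GGACCgggtctggggtccccgcgtcggcgg
B9d2: ccgcaaagaagcccgtGAACTaccatcccc
Il15ra: aagtgaacaaggctgaagtcaggtgtgggc
Gabpb2: tcacgtaagccacgtaatcggtgatcctgc
Gm10603: ctggtagccacgtccctcaggtttcctcag

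Of all 10 stretches of 30 bases, 2 held one of the 6 motifs, those of Ppp2r5c and B9d2, beside 15.5% of 32817 stretches of the same length from all windows. With both strands searched, 4 of the 10 stretches held one, beside 28.7% of all. Over the whole windows of 300 bases, on the strand of the gene, 8 of 10 held at least 1 motif, beside 83.3% of all windows. Pcyt1a encodes the enzyme that makes CDP-choline and limits phosphatidylcholine synthesis, and its summit lay 45 bases after the gene start. Ppp2r5c encodes a regulatory subunit of protein phosphatase 2A, and its summit lay 98 bases before the annotated start. Il15ra encodes the receptor chain for interleukin 15, and its summit was 228 bases before the start. Of the 10 summits, 8 lay before the annotated start. A peak carries no strand in the lists, so the transcript that such a summit belongs to cannot be told apart.

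The overlap between libraries bears on every member. HF replicate 1 shared 23.2% of its peaks with HF replicate 2, 19.6% with HB replicate 1 and 21.0% with HB replicate 2. The HB replicates shared 20.2% of the peaks of HB replicate 1. Members made up 7.77% of HF replicate 1 peaks and 33.5% of those also found in HF replicate 2. The mirror image of the rule, peaks of both HB libraries and of neither HF library, held 1420 peaks or 6.43% of HB replicate 1. Peaks shared by HF replicate 1 and a single HB library, and by no other, numbered 1309 for HB replicate 2 and 1101 for HB replicate 1. A member is a region not listed in HB at the authors' limit, a fold enrichment of about 6, and not a region shown to lack methylation there.

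**Figure D1:**
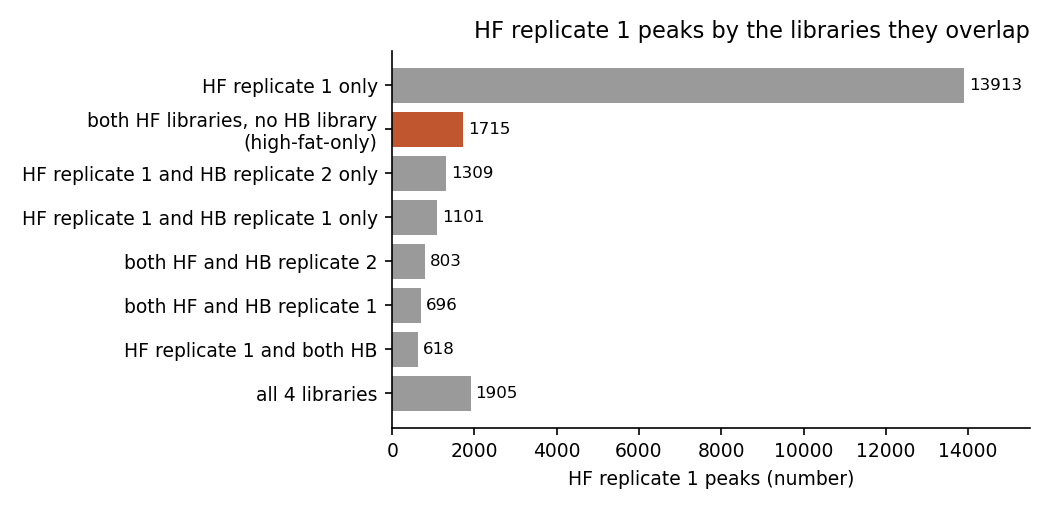
Number of HF replicate 1 peaks (horizontal axis) in each of 8 patterns of overlap with the other 3 m6A libraries, with the high-fat-only pattern in orange. The largest pattern is peaks of HF replicate 1 alone with 13913, the high-fat-only pattern holds 1715, and 1905 peaks were in all 4 libraries.

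The members were weaker and narrower than the peaks found in every library. Their median fold enrichment over the local background, as the authors' peak caller gave it, was 8.67 in HF replicate 1 (quartiles 7.16 and 11.4) and 10.3 in HF replicate 2 (quartiles 7.77 and 14.5). Peaks of all 4 libraries had a median of 12.8 in HF replicate 1. The median width was 275 bases for members and 527 bases for peaks of all 4 libraries, and the median pileup at the summit was 35.1 against 134. Being listed and overlapping in every library itself depends on enrichment and width, so this difference is partly built into the classes. Over all HF replicate 1 peaks the medians were 8.77-fold, 230 bases and a pileup of 22.3. Beside those, members were similar in enrichment, wider and higher in pileup. Of the members, 21.2% lay under 7-fold in HF replicate 1, compared with 6.82% of the all-library peaks. Both enrichments reached 10 in 379 members, or 22.1%. Across the members, Pearson's r between the log2 enrichments in the replicates was 0.20 over 1715 peaks, and it was 0.40 over the 1905 peaks of all 4 libraries. These are correlations across peaks within a pair of libraries, and peaks are not independent replicates.

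The strongest members lay in genes of varied function. Ranked by the lower of their HF enrichments, the first was in Glg1, a Golgi glycoprotein, at chr8:111173204-111173463, with 37.2-fold in replicate 1 and 30.6-fold in replicate 2. Pum3, a nucleolar RNA-binding protein, followed at chr19:27390023-27390395 with 29.5-fold and 31.8-fold. The peak in Cux1, a homeodomain transcription factor, had 28.6-fold and 36.2-fold. Nes, which encodes the intermediate filament nestin, had 26.3-fold and 53.0-fold at chr3:87978438-87978822. The next were Cdh2 (N-cadherin), Avpr1a (the vasopressin receptor of hepatocytes), Twistnb (a subunit of RNA polymerase I), Ppp1r12a (the targeting subunit of myosin phosphatase), Cnst (consortin), Gm34939, Tnc (tenascin C, in a span shared with 8030451A03Rik) and Slk (a protein kinase). In these 12 peaks the lower of both enrichments ran from 20.3 in Slk to 30.6 in Glg1. Nes, Avpr1a and Twistnb held no HB peak anywhere in their span, while Cux1 held 7 in HB replicate 1 and 15 in HB replicate 2 elsewhere in its span. The distance from these peaks to the nearest HB peak ranged from 178 bases in Gm34939 to 35019 bases in Nes.

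**Figure D2:**
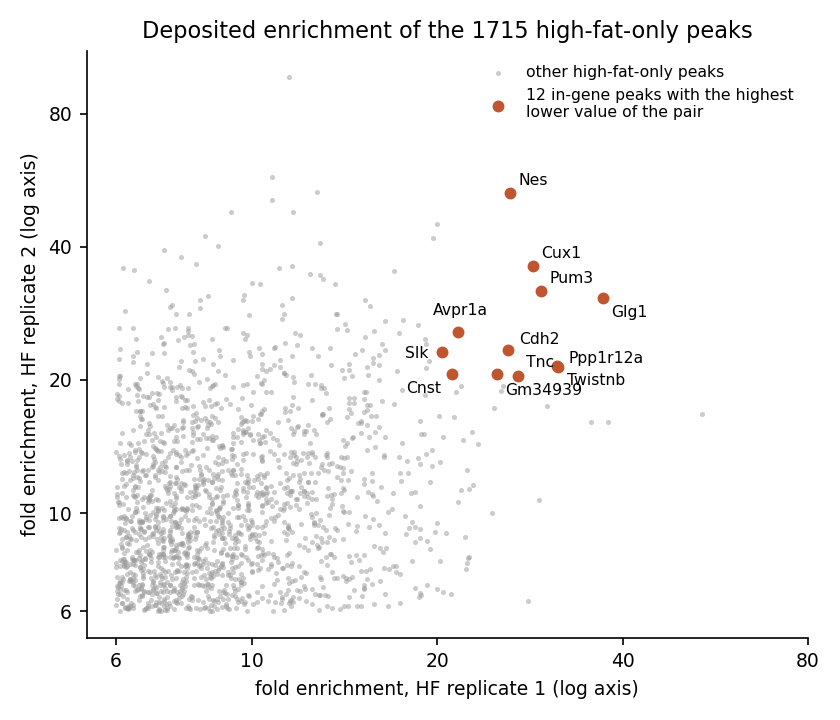
Fold enrichment of each of the 1715 members in HF replicate 1 (horizontal, log axis) and HF replicate 2 (vertical, log axis), as deposited. The 12 in-gene peaks with the highest lower value are named, and most members lie near the lower left, at a median of 8.67 and 10.3.

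Some members lay close to the edge of the rule. An HB peak was within 200 bases of 138 members (8.05%) and within 1000 bases of 469 (27.3%), and the median gap was 3012 bases. Just inside the rule were members in Adpgk (ADP-dependent glucokinase), Mettl5 (a methyltransferase of ribosomal RNA) and Gm39469, each 3 bases from an HB replicate 2 peak. Their enrichments in HF replicate 1 were 11.5, 6.15 and 8.08. Just outside were HF peaks in Ddc (an aromatic amino acid decarboxylase) and Vrk2 (a kinase), which overlapped an HB peak by 2 bases, and in Sprtn (a protease for DNA-protein crosslinks), which overlapped by 4 bases. Their enrichments were 10.9, 6.40 and 7.46.

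Position along the gene was not used by the rule. Of the members, 1542 had their summit in the span of a single RefSeq gene, 111 in more than 1 gene and 62 in none. Where spans overlap, the gene that gave the peak cannot be told apart. The strand was known for 1209 of the 1542. Their summits lay at a median of 72.7% of the way from gene start to gene end, and 27.0% were in the last of 10 equal bins of the span. For peaks of all 4 libraries 44.3% were in that bin, and for peaks of HF replicate 1 alone 13.8%. Other partial overlaps were near the members. The share was 25.8% for HF replicate 1 peaks shared with HB replicate 1 only, 22.3% with HB replicate 2 only and 30.2% with both HB libraries only. Within 1000 bases of the gene end lay 137 members (11.3%, against 16.8% of all-library peaks), and within 1000 bases of the start lay 66 (5.46%, against 2.78%). Which of these positions are exonic, intronic or untranslated was not analysed here.

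**Figure D3:**
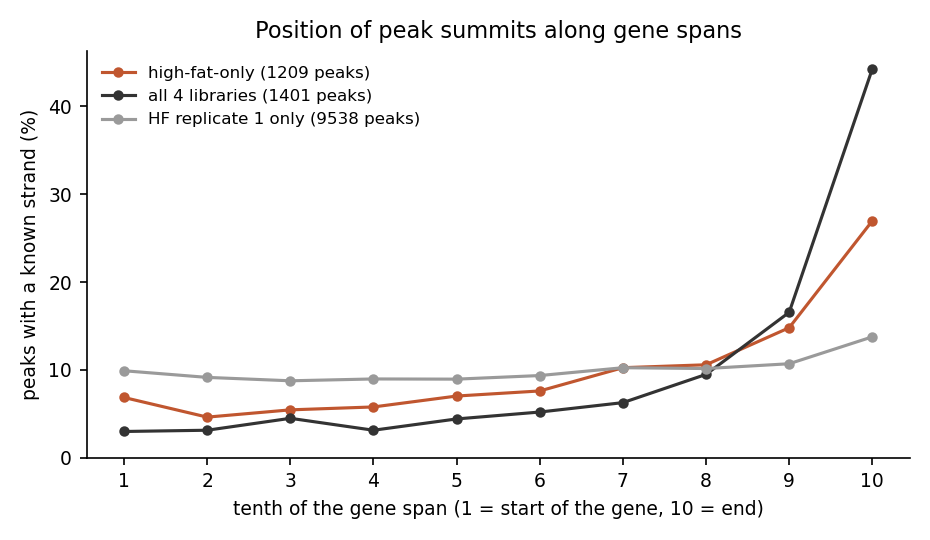
Share of peaks (vertical axis, %) whose summit lies in each of 10 equal bins of the gene span (horizontal axis, 1 at the gene start and 10 at the gene end) for members, peaks of all 4 libraries and peaks of HF replicate 1 alone. Members lie between the other plotted classes in the last bin, at 27.0% compared with 44.3% and 13.8%.

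Most member genes carried other peaks in HB. The members fell into 1474 genes of the count tables, of which 1305 held 1 member, 145 held 2 and 24 held 3 or more. In 1261 of these genes (85.5%) an HB library had a peak elsewhere in the span, and 213 (14.5%) had no HB peak at all. A peak in all 4 libraries was present in 284 of the member genes (19.3%). Of the member genes, 225 also held a betaine-only peak, which is 15.3% of the member genes and 20.0% of the 1124 genes with a betaine-only peak. Zbtb20, a zinc finger repressor of hepatocytes, held 8 members over 758704 bases, Dpyd, the first enzyme of pyrimidine breakdown, held 6 over 870816 bases, and Gphn, the molybdenum cofactor enzyme gephyrin, held 5 over 467448 bases. Adk (adenosine kinase), Myh9 (non-muscle myosin), Neb (nebulin) and Zfc3h1 (a nuclear RNA surveillance factor) held 4 each, and Bod1l held 3. The spans of Myh9, Zfc3h1 and Bod1l were shorter, at 81591, 47974 and 56818 bases. Dpyd also had 73 HB replicate 1 peaks and 85 HB replicate 2 peaks across its span. The mRNA of Zbtb20, Dpyd and Adk did not pass the test between diets, with log2 changes of -0.61, 0.53 and 0.53 (edgeR adjusted p of 0.289, 0.248 and 0.241).

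The member genes were then followed in polyadenylated mRNA, which the rule did not use, with 2 libraries per diet of 11437462 to 22492813 counted reads. Values are CPM, reads of the gene scaled to the library's size, changes are log2 of HB over HF, and a gene passed at an edgeR quasi-likelihood adjusted p of at most 0.05 over all genes tested. The libraries carried the markers of liver: the summed CPM of 12 hepatocyte genes was 101020 and 105171 in HF. In HB that sum was higher, 139827 and 144071. For 12 macrophage genes the sum was 311 and 367 in HF and 530 and 538 in HB, and for 12 endothelial genes 568 to 663 in HF and 336 to 474 in HB. For 10 lymphocyte genes it was 23.8 and 30.8 in HF and at most 13.8 in HB. For 12 red cell and neutrophil genes it was 388 and 347 in HF and 548 and 1623 in HB, where HB replicate 2 stood apart. For 12 stellate cell genes it was 408 and 334 in HF and 425 and 415 in HB, and for 8 cholangiocyte genes the diets overlapped. No marker of these lists was at 0 in all mRNA libraries. The part of these marker differences in the results on member genes was not tested, and in whole liver fewer cells of a type and less RNA per cell cannot be told apart.

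More member genes were lower than higher in HB. Of the 1474 genes, 1429 passed the filter on low counts, 111 of these were higher in HB and 194 were lower. That is 7.77% higher, beside 11.3% of all 12817 genes tested, and 13.6% lower, beside 10.1% of all genes. The median log2 change was -0.14 (quartiles -0.66 and 0.43), and it was 0.01 over all genes. Genes chosen by other peaks gave similar shares. Of 1644 genes with a peak in all 4 libraries, 115 were higher and 215 (13.1%) lower, with a median of -0.09, and of 1078 genes with a betaine-only peak, 7.42% were higher and 12.5% lower, with a median of -0.08. Some genes belong to more than 1 of these groups. Scaled by total counts, the split among member genes was 63 higher and 334 lower, with the median over all genes then at -0.28 and 6.11% of all genes higher and 18.1% lower. Without HF replicate 1 the split was 22 higher (1.52%) and 60 lower (4.15%), beside 2.63% and 3.21% of all genes. Dropping HF replicate 2 gave 53 (3.67%) and 125 (8.66%), beside 4.97% and 6.43% of all. Dropping HB replicate 1 gave 54 (3.77%) and 111 (7.74%), beside 7.06% and 4.11% of all. With HB replicate 2 left out, the median log2 change was -0.067 for member genes and -0.015 for all genes, closer together than with all libraries. In a model of the mRNA and ribosome-bound libraries together, 0 member genes passed in mRNA, with 193 (13.4%) at an unadjusted p under 0.05, beside 12.2% of all genes. DESeq2 on the mRNA libraries called 123 (8.61%) higher and 224 (15.7%) lower, beside 12.3% and 11.3% of all genes.

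**Figure D4:**
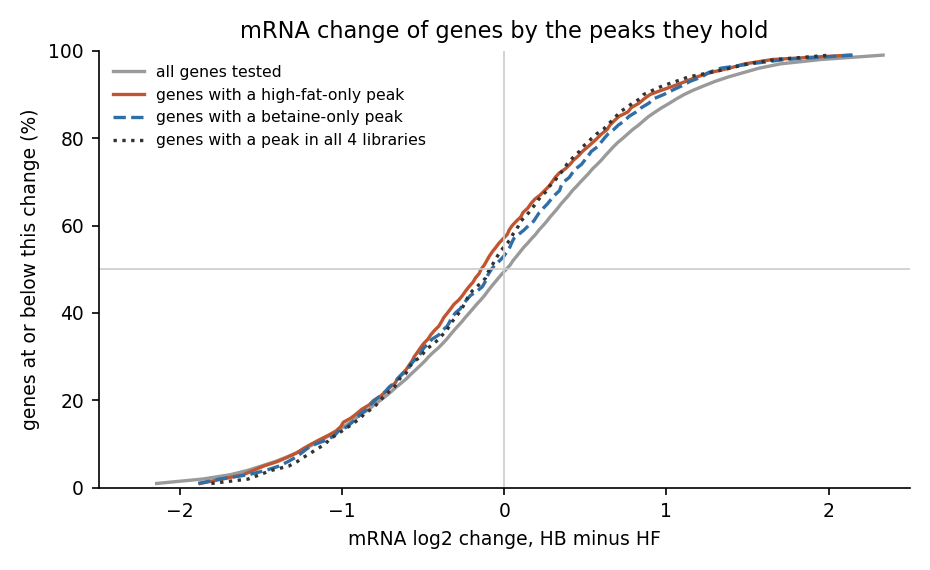
Percent of genes (vertical axis) at or below each mRNA log2 change of HB minus HF (horizontal axis), for all genes tested and for genes with a high-fat-only peak, a betaine-only peak or a peak in all 4 libraries. The curves of the 3 peak classes lie close together, and at the median they are left of all genes, at -0.14, -0.08 and -0.09 against 0.01. In the lower tail the curves cross, and at percentile 1 the peak classes are at -1.87, -1.89 and -1.81 against -2.14.

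Of the 213 genes whose span held no HB peak, 198 were tested, of which 28 (14.1%) were higher and 18 (9.09%) lower in HB, with a median log2 change of 0.08. Of the 1231 tested member genes with an HB peak elsewhere, 83 (6.74%) were higher and 176 (14.3%) lower, with a median of -0.18. The 2 sets differed in transcript length too, with medians of 2428.5 and 4037 bases for the longest transcript. Among 169 genes with 2 or more members, 10 (5.92%) were higher and 37 (21.9%) lower, and their median transcript length was 4689 bases. Of all genes, 11.3% were higher and 10.1% lower. The difference between these sets was not tested.

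The member gene with the steepest fall in HB was Il1r1, the signalling receptor for interleukin 1. Its mRNA was 394 and 319 CPM in the HF libraries and 27.2 and 64.1 CPM in the HB libraries, a log2 change of -2.97 ± 0.41 (SE, edgeR adjusted p = 0.00403). The HB values lay far below both HF values. Its member peak, at chr1:40299049-40299248, had enrichments of 8.83 and 10.2. Elsewhere in the Il1r1 span lay 7 HB replicate 1 peaks and 8 HB replicate 2 peaks. Adrb3, the beta-3 adrenergic receptor, had 27.3 and 110 CPM in HF and 10.6 and 15.4 CPM in HB. Its log2 change was -2.41 ± 0.52 (edgeR adjusted p = 0.012), but HF replicate 2 stood well above the other HF library, and the call was lost on dropping HF replicate 2 or either HB library.

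The next largest falls were in genes of several kinds. Srsf11, a splicing factor with a domain rich in arginine and serine, had 512 and 366 CPM in HF and 79.6 and 111 CPM in HB, a log2 change of -2.21 ± 0.33 (edgeR adjusted p = 0.00462). Luc7l2, a component associated with the U1 particle of the spliceosome, had 680 and 799 CPM in HF and 203 and 183 CPM in HB, a log2 change of -1.94 ± 0.30 (edgeR adjusted p = 0.00486). In both genes the diets were separated by a wide margin. Txlng, a syntaxin-binding taxilin, fell from 188 and 195 CPM to 31.3 and 45.8 CPM, a log2 change of -2.32 ± 0.31. Log2 changes of -2.11 to -1.91 were found for C730036E19Rik (in a shared span), the zinc finger gene Zfp182, Acrbp (an acrosin-binding protein), Naip5 (a sensor of bacterial flagellin with close paralogs, so its count is uncertain) and Cspp1 (a centrosome protein). The rule that chose them asked for both HB libraries to lie on 1 side of both HF libraries. Their edgeR adjusted p ran from 0.00486 to 0.00999. Cnst and Slk, from the most enriched peaks, also fell, by 1.87 (edgeR adjusted p = 0.00807) and 0.91 (edgeR adjusted p = 0.0334). The call of Slk was lost on dropping either HF library or HB replicate 1.

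Among the rises, Acsl5, an acyl-CoA synthetase that activates long-chain fatty acids, had 86.6 and 62.6 CPM in HF and 529 and 259 CPM in HB. Its log2 change was 2.40 ± 0.38 (SE, edgeR adjusted p = 0.00507), and its span held 1 peak in each HF library and no HB peak. Eif4ebp2, a repressor of cap-dependent translation, had 3.71 and 3.61 CPM in HF and 34.4 and 13.8 CPM in HB, a log2 change of 2.72 ± 0.44 (edgeR adjusted p = 0.00548). Gfm1, a mitochondrial elongation factor, rose from 22.2 and 15.7 CPM to 106 and 65.4 CPM, and its member peak lay 238 bases from the gene end. In these 3 genes HB replicate 1 was the highest library. Agmo, which cleaves alkylglycerol ethers, rose by a log2 value of 2.26, as did Gna12, a G protein alpha subunit, and Crebl2, a leucine zipper protein, rose by 2.24. Hist1h1c, a linker histone, had 3.71 and 0.706 CPM in HF and 19.5 and 14.8 CPM in HB, a log2 change of 2.96 ± 0.56. Ugt1a9, Ugt1a6a and Ugt1a6b, glucuronosyltransferases, rose by 3.67, 3.27 and 2.88, but a single peak in their overlapping spans made all 3 members, and they share exons, so their reads may be split among them. Without HB replicate 1, the calls of Ugt1a9, Ugt1a6b, Hist1h1c, Gna12 and Crebl2 were lost.

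**Figure D5:**
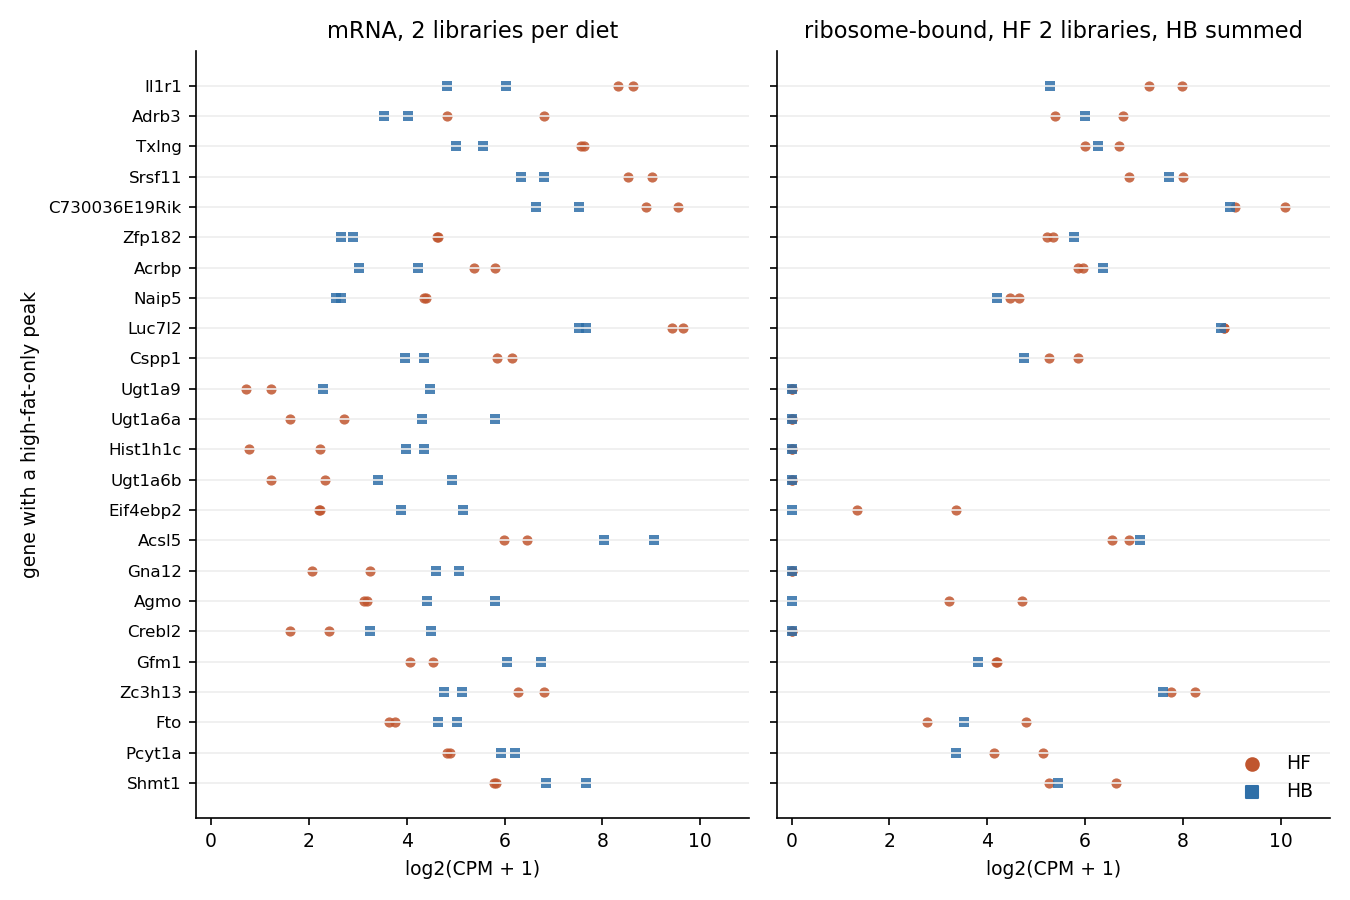
Level of 24 member genes in each library as log2(CPM + 1) on the horizontal axes, in mRNA (left, 2 libraries per diet) and in ribosome-bound mRNA (right, 2 HF libraries and the sum of both HB libraries), with HF as orange circles and HB as blue squares. In mRNA the diets are separated, which was a condition for choosing the 20 genes with the largest changes, for example Il1r1 at 319 to 394 CPM in HF and 27.2 to 64.1 CPM in HB, while in ribosome-bound mRNA 6 genes have no reads.

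The m6A machinery itself was represented. Of 21 genes for m6A writers, erasers and readers, 14 held some HF replicate 1 peak and 5 held a member: Zc3h13, Fto, Rbm15, Rbm15b and Zcchc4. Of all genes 6.01% held a member, and of those with any HF replicate 1 peak 17.6% did. Of all genes tested in mRNA, 11.3% were higher in HB and 10.1% lower. Mettl3, Mettl14, Wtap, Alkbh5, Ythdf1, Ythdf2 and Ythdf3 held none. The stronger of the members in Zc3h13, the writer adaptor, had enrichments of 17.0 and 17.7 at chr14:75323174-75323513, and an HB peak lay 51 bases away. Zc3h13 mRNA was 111 and 76.8 CPM in HF and 26.2 and 34.0 CPM in HB, a log2 change of -1.64 ± 0.30 (edgeR adjusted p = 0.00751). Fto, the eraser, held a member with 12.3-fold and 11.8-fold at chr8:91540844-91541088, and its mRNA was 11.4 and 12.6 CPM in HF and 31.7 and 23.7 CPM in HB, a log2 change of 1.21 ± 0.30 (edgeR adjusted p = 0.0201). Diets were separated in Zc3h13 and Fto, in opposite directions. Such separation was common: of all 12817 genes tested in mRNA, 4204 had both HB libraries above both HF libraries and 4113 had both below. The span of Fto also held 8 HB replicate 1 peaks and 6 HB replicate 2 peaks. Zcchc4, a methyltransferase of 28S ribosomal RNA that was named after its values were seen, fell by 1.22 (edgeR adjusted p = 0.0228). Rbm15 and Rbm15b did not pass, and the change of Rbm15b was 0.42 (edgeR adjusted p = 0.409). The calls of Fto and Zcchc4 were each lost on dropping either HF library or HB replicate 1, and that of Zc3h13 on dropping HF replicate 1.

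Of 35 genes of betaine, methionine, choline and folate metabolism, 15 held some HF replicate 1 peak and 4 held a member. A member was held by 6.01% of all genes and by 17.6% of those with any HF replicate 1 peak. In mRNA, 11.3% of all genes tested were higher in HB and 10.1% lower. Pcyt1a, whose member lies at the gene start, had 28.5 and 27.2 CPM in HF and 73.0 and 59.6 CPM in HB, a log2 change of 1.25 ± 0.27 (edgeR adjusted p = 0.0123). Shmt1, the cytosolic serine hydroxymethyltransferase, had 53.9 and 55.5 CPM in HF and 201 and 114 CPM in HB, a log2 change of 1.53 ± 0.33 (edgeR adjusted p = 0.0115). Its peak lay 205 bases from the gene end and was the sole peak of its span in either HF library, with no HB peak. Mtrr, which reactivates methionine synthase, and Chdh, which makes betaine aldehyde from choline, did not pass, with log2 changes of -0.58 and -0.04 (edgeR adjusted p of 0.213 and 0.93). The calls of Pcyt1a and Shmt1 were lost without HF replicate 1, and that of Pcyt1a also without HF replicate 2.

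Of all 24539 genes of the count tables, 6.01% held a member, and of the 8355 with any HF replicate 1 peak 17.6% did. In the lipid lists together 7 of 127 genes (5.51%) held one, or 13.2% of the 53 with any HF replicate 1 peak. Members lay in 1 of 33 genes of cholesterol synthesis and uptake, 1 of 28 of fatty acid and triglyceride synthesis, 2 of 34 of fatty acid oxidation and 3 of 32 of lipid droplets and lipoproteins. Angptl8, a secreted inhibitor of lipoprotein lipase that lies in a shared span, was 122 and 114 CPM in HF and 36.7 and 38.7 CPM in HB, a log2 change of -1.65 ± 0.27 (edgeR adjusted p = 0.00593). The other members of these lists did not pass. Acacb, the acetyl-CoA carboxylase of mitochondria, came closest with 100 and 26.0 CPM in HF and 337 and 90.6 CPM in HB, a log2 change of 1.76 (edgeR adjusted p = 0.0661), and its libraries overlapped between diets. Scarb1 (an HDL receptor), Eci2 (an enoyl-CoA isomerase), Vldlr (the VLDL receptor) and Apob (the structural protein of VLDL) had changes of 0.61, 0.31, -0.64 and 0.34, and Acsl1 did not pass either. Of 31 genes of bile acids and xenobiotic enzymes, Klb, Cyp7b1 and Aox3 held a member. Cyp7b1, the oxysterol hydroxylase of the alternative bile acid pathway, rose from 30.0 and 35.7 CPM to 61.9 and 80.9 CPM (edgeR adjusted p = 0.0202), a call lost without either HF library, while Klb and Aox3 had changes of 0.83 and 0.64 that did not pass.

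Among chromatin regulators, 16 of 54 genes (29.6%) held a member, beside 6.01% of all genes. Some HF replicate 1 peak lay in 48 of the 54, and 33.3% of these held a member, beside 17.6% of all genes with such a peak. These shares were not matched for gene span or for peaks per gene. Among the 16, HF replicate 1 peaks per gene ran from 2 in Kdm5a to 12 in Ash1l. Of the 16, 0 were higher and 5 were lower in HB, beside 11.3% and 10.1% of all genes tested. Their median log2 change was -0.57, and of the 53 tested genes of the whole list 0 were higher and 19 lower, with a median of -0.71. DESeq2 called 6 of the 16, beside 12.3% of all genes higher and 11.3% lower. Kmt2b, a histone H3 methyltransferase, had 128 and 101 CPM in HF and 33.4 and 69.3 CPM in HB, a log2 change of -1.16 ± 0.36 (edgeR adjusted p = 0.0387). Kdm3b and Kdm5b (histone demethylases), Chd6 (a chromatin remodeller) and Arid1a (a subunit of the BAF remodeller), named after their values were seen, fell by 1.37, 1.18, 1.39 and 0.92. Setd2, a methyltransferase that marks gene bodies, had a change of -0.58 that did not pass (edgeR adjusted p = 0.145), and Kdm7a and Crebbp did not pass. All 5 calls were lost without HF replicate 1, those of Kdm5b and Arid1a also without HF replicate 2, and those of Kmt2b and Arid1a also without HB replicate 1.

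Signalling lists held members in receptors and kinases, and their counts stand beside 11.3% higher and 10.1% lower of all genes tested. In inflammatory signalling 8 of 46 genes held a member, among them Il1r1, whose fall is given above. Stat3 and Jak2, which carry cytokine signals, had changes of -0.34 and -0.32 and did not pass, nor did Il1rap, the accessory chain of the interleukin 1 receptor. In insulin signalling and gluconeogenesis 8 of 33 held a member and 0 of the 8 passed by edgeR or by DESeq2, with 2 at an unadjusted edgeR p under 0.05. Changes there were -1.25 for Igf1r, -0.46 for Gckr (the regulator of glucokinase), -0.27 for Insr (the insulin receptor) and -0.49 for Tsc1 (a brake on mTORC1). In the ubiquitin list 8 of 36 held a member, among them Smurf1, Usp32 and Usp8, and 1 passed, the large ligase Mycbp2, which fell by 0.95 (edgeR adjusted p = 0.0388), a call lost on dropping either HF library or HB replicate 1. The change of Smurf1, a ligase for Smad proteins, was 0.60.

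Notch, Wnt and TGF-beta signalling had 5 of 43 genes with a member, 4 of them tested and 0 passing by edgeR or DESeq2, with 2 at an unadjusted edgeR p under 0.05. The shares of all genes passing by edgeR were again 11.3% higher and 10.1% lower. By DESeq2 they were 12.3% and 11.3%. Smad1, which carries BMP signals, held a strong member with 35.6-fold and 16.0-fold, and its mRNA change was -0.58 (edgeR adjusted p = 0.189). Fzd1, a Wnt receptor, held one with 16.9-fold and 11.1-fold and had a change of 0.88. Jag2 and Axin2 also held members. Among nuclear receptors, Nr3c2 (the mineralocorticoid receptor), Thrb (a thyroid hormone receptor) and Nr5a2 (a regulator of bile acid genes) held a member and did not pass by edgeR. DESeq2 called 1 of the 4 genes of that list with a member. Of 38 immediate-early genes Fos, Egr1 and Zfp36 held one, Zfp36 with a change of -0.89 (edgeR adjusted p = 0.0526). DESeq2 called 1 of these 3. Among markers of cell types, C1qa, Cdh5, Lrat, Sox9 and Spp1 held a member and did not pass by edgeR, and none of the 12 hepatocyte markers held one. Lrat, the sole stellate cell gene with a member, was called by DESeq2.

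Ribosome-bound mRNA, from ribosomes pelleted with their nascent chains (RNC), was measured for the same genes. The HF libraries of this kind differed widely from each other: 2798 genes had 0 reads in one and over 20 in the other, so each HF value is given. The HB libraries differed by little more than sampling noise (chi-square over its degrees of freedom 1.40, and 98.0 for the HF pair) and were counted as 1 sample. Of the member genes, 1262 were tested, and by edgeR 0 passed, beside 0.0% of all 10986 genes. At an unadjusted p under 0.05 there were 46 member genes (3.65%), beside 3.19% of all genes, 10 of them higher and 36 lower in HB. Among all genes 111 were higher and 239 lower at that limit. DESeq2 called 88 member genes, beside 6.03% of all genes. Of these 11 (0.872%) were higher, beside 1.2% of all genes, and 77 (6.10%) were lower, beside 4.83%. The median log2 change was -0.08 for member genes and -0.01 for all. Of 1048 member genes with at least 10 CPM in mRNA, 98 (9.35%) had 0 reads in the summed HB library and 52 (4.96%) in both HF libraries, beside 8.66% and 5.29% of all such genes. These measures are unlike, since the HF count asks for 0 reads in both of its libraries. With 0 reads in 1 HF library there were 182 member genes (17.4%), beside 16.0% of all such genes.

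The member genes with the smallest p in RNC are given as values, since none passed. Only genes of at least 5 CPM on average whose HB value lay on 1 side of both HF values were eligible. Tlcd1, a membrane protein of lipid composition, had 72.6 and 76.9 CPM in HF and 335 CPM in HB. Copz1, a coatomer subunit, had 69.2 and 89.8 CPM in HF beside 262 CPM in HB, and its mRNA was also higher in HB, by 0.87 (edgeR adjusted p = 0.0444). Fabp1, the fatty acid binding protein of liver, had 2894 and 2146 CPM in HF and 6656 CPM in HB, with an mRNA change of 0.80 that did not pass (edgeR adjusted p = 0.0754). Acacb had 131 and 20.3 CPM in HF and 767 CPM in HB. Upf3b, a factor of nonsense-mediated decay, had 10.3 and 16.0 CPM in HF and 97.9 CPM in HB, while its mRNA fell by 1.16 (edgeR adjusted p = 0.0214). That HB lay above both HF libraries in RNC was a condition for choosing these 5 genes. The mRNA call of Copz1 was lost on dropping either HF library or HB replicate 1, and that of Upf3b without either HF library.

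In the other direction, Baiap2, an adaptor of actin remodelling, had 315 and 344 CPM in HF beside 44.0 CPM in HB, and its mRNA fell by 1.34 (edgeR adjusted p = 0.0491), a call lost without HF replicate 1 or HB replicate 1. Cecr2 (a chromatin remodelling subunit), Ankrd13c (an ankyrin repeat protein) and Taf11 (a subunit of TFIID) had 0 reads in the summed HB library. Their HF libraries held 67.8 and 35.1 CPM for Cecr2, 41.4 and 35.4 CPM for Ankrd13c and 47.4 and 26.3 CPM for Taf11. Lrp10, a receptor of the LDL receptor family, had 110 and 773 reads in the HF libraries and 1 read in HB. Cecr2 mRNA fell too, by 1.34 (edgeR adjusted p = 0.0158), a call lost without HF replicate 1. Of the 10 member genes with the largest rises in mRNA, 6 (Ugt1a9, Ugt1a6a, Ugt1a6b, Hist1h1c, Gna12 and Crebl2) had 0 reads in every RNC library. For Il1r1, RNC values of 252 and 158 CPM in HF and 38.1 CPM in HB followed the order of its mRNA, while for Txlng 75.8 CPM in HB lay between 102 and 62.7 CPM in HF, and for Luc7l2 437 CPM in HB was close to 457 and 456 CPM in HF. Among list genes passing in mRNA, the RNC order was opposite for Pcyt1a (16.6 and 34.3 CPM in HF, 9.26 CPM in HB). It was also opposite for Cyp7b1 (26.7 and 34.8, 10.6), Chd6 (46.6 and 73.3, 112) and Kmt2b (115 and 109, 140). Zc3h13 (214 and 305, 192), Kdm3b, Kdm5b, Arid1a, Mycbp2 and Angptl8 were below both HF libraries in HB, as in mRNA. The diets overlapped for Shmt1 (98.8 and 37.2, 42.7), Fto (5.82 and 26.6, 10.5) and Zcchc4. Among all 10986 genes tested in RNC, HB lay above both HF libraries in 4023 and below both in 2575.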

How the data were processed

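Peaks, mRNA and ribosome-bound mRNA of 12 of 16 samples were analysed, 2 per diet and kind, and the 4 input samples of the pull-down were left out as not analysed here. The authors deposited raw read counts per gene and RPKM per longest transcript, and m6A peaks called per library, with a pileup signal, a fold enrichment ratio and −log10 p and q values, per the file headers. The submitters' processing notes name HISAT2 2.0.4, HTSeq 0.6.0, cutadapt 1.9.3, MACS2 2.1.0.20151222, HOMER 4.8, edgeR and mm10, without roles. The deposited RPKM entered no test. The limit of the peak lists, 6.00-fold, is read from the smallest values in them. The pileup scaling is not given in the sources used here.

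Peaks were assigned to RefSeq GRCm38.p6 gene spans by their summit. Strand came from the promoter table. Counts were tested with edgeR 4.0.16 (quasi-likelihood, TMM, filterByExpr, R 4.3.3) within each kind of library, with Benjamini-Hochberg adjustment over all genes, and with DESeq2 1.42.0 as an alternative. CPM values use TMM library sizes. SE is derived from the F statistic. The HB ribosome-bound libraries were summed. The functions were tested on simulated data. Total reads were 11437462 to 22492813 in mRNA and 5778439 to 8659310 in ribosome-bound libraries.

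Members and the 22 gene lists were chosen with earlier results of these data known. Named genes are the 12 in-gene members with the highest lower enrichment, the 8 genes with most members, and up to 10 passing member genes per direction of at least 5 CPM on average whose diets did not overlap. To these were added up to 4 genes per list by enrichment, the 3 members nearest an HB peak and the 3 HF peaks of smallest HB overlap. In ribosome-bound mRNA 5 genes of smallest p per direction are given as values, with the same conditions on average CPM and on overlap of diets. The HF and HB replicate numbers were not treated as pairs in the main test. The correlation over genes of same-numbered deviations in mRNA was -0.12. A single such correlation cannot show whether the samples were paired. Some genes that the rule names are not reported here.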

Additional observations from a re-analysis of the deposited data

How the results depend on the processing

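The number of members was 1587 with an overlap of 50% of the shorter peak, 1575 by summit, 1577 with no HB peak within 200 bases and 1756 when HF replicate 2 peaks were counted. It was 709 with all lists at 10-fold or more, 379 with only the HF lists at that limit, and it ranged from 2411 to 17737 on leaving out a library, since the rule then has fewer lists to satisfy.

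In mRNA, member genes higher and lower in HB numbered 111 and 194. They were 0 and 0 in the model of mRNA and ribosome-bound libraries together, 63 and 334 with total counts, and 22 to 156 and 60 to 214 on leaving out a library. With the replicate block they were 112 and 209, within 1.5 times, and with crossed replicate numbers, added after seeing the data, 128 and 241. The other alternatives (size factors, DESeq2, both filters, and the genes of members with no HB peak within 200 bases) stayed within 1.5 times. In ribosome-bound mRNA, 0 and 0 became 11 and 77 with DESeq2, 73 and 63 in the model of both kinds, 87 and 74 with the HB libraries kept apart, and 0 to 305 and 0 to 258 on leaving out a library, where leaving out an HF library needed the spread of the mRNA libraries and assumed the lone sample to vary like those. The cause was not tested. Of 39 named genes that passed in mRNA, 16 passed with each library left out in turn, and 0 changed sign. Chdh, which did not pass, changed sign to 0.09 without HB replicate 2 and 0.18 without HF replicate 1, over a leave-one-out range of -0.27 to 0.18.

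The alternative by exons was not run, since no exon annotation was at hand, nor the replicate block in ribosome-bound mRNA, where the HB libraries were summed. The peak lists give no read counts, so the depth behind a missing HB peak is unknown. With 2 pools per diet, small changes in mRNA were not detectable, and 1 residual degree of freedom limits the ribosome-bound test.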

Other observations

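Some member peaks overlapped annotated microRNA hairpins, those of Mir7225 on chromosome 3, Mir7023 on chromosome 4 and Mir7065 on chromosome 8. These hairpins lie within or beside other transcripts, and the peaks carry no strand, so their source transcript cannot be told apart. Of all members, 1621 lay in a gene of the count tables and 62 lay in no RefSeq gene span.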
